A study of Mus musculus with 16 samples.

Results

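The vomeronasal receptor genes *Vmn1r186* to *Vmn1r223* were followed in the vomeronasal organ (VNO), the sense organ in the nasal septum of mice that detects pheromones and other chemical signals. Every entry present in both the count and the RPKM tables whose symbol was Vmn1r followed only by a number, within the range *Vmn1r186* to *Vmn1r223*, was taken, without regard to its values. Of the 38 numbers, 36 were present, out of 24407 genes counted and beside 172 other Vmn1r genes. The other 2 numbers belong to the pseudogenes *Vmn1r190-ps* and *Vmn1r207-ps*, which were not taken.

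The mice were 12-week-old males and females of 8 lines derived from outbred Hsd:ICR stock. In 4 High Runner lines (HR lines 3, 6, 7 and 8) mice had been bred for voluntary wheel running, and 4 Control lines (lines 1, 2, 4 and 5) had been kept without selection. Each line gave 1 male and 1 female library, each from the pooled VNOs of 3 mice, which made 16 libraries. A line is therefore represented by 2 pools, and no pool had a repeat from the same line and sex. Counts on genes ran from 15998552 to 70875276 per library, with a median of 37366329. Levels are given as CPM, counts divided by the TMM-scaled size of the library, and levels of different genes are compared only as RPKM, which divides by gene length and which the authors scaled separately in each sex.

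Vmn1r genes encode V1R receptors, G protein-coupled receptors of the sensory neurons in the apical layer of the VNO. These neurons signal through the G protein subunit Gαi2 (*Gnai2*) and the channel Trpc2. Each neuron expresses mainly 1 receptor gene, so the RNA level of a receptor in the whole organ depends on how many neurons chose it and on how much RNA each of them holds. In pooled tissue fewer cells and less RNA per cell cannot be told apart. V1R genes have their coding sequence in a single exon, stand in clusters of close relatives, and vary between mouse strains.

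In the GENCODE M21 annotation of GRCm38, 34 of the 36 genes stood together at chr13:22084440-23253906, a stretch of 1.17 Mb, 19 on the plus and 15 on the minus strand. *Vmn1r186* was on an unplaced scaffold, *Vmn1r187* had no GENCODE entry, and RefSeq (GRCm38.p6) lists both under chromosome 7, so the description as chromosome 13 receptors does not hold for them. By their older names in RefSeq, 20 of the 34 belong to the V1rh subfamily and 9 to the V1ri subfamily. The other 5, *Vmn1r194*, *Vmn1r204*, *Vmn1r209*, *Vmn1r221* and *Vmn1r223*, have no such name.

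The coding sequences of the 34 genes were 891 to 1155 bases long. Each had a closest relative within the cluster at 72.5% to 96.0% identity, counted over the longer of the pair. The highest value was between *Vmn1r206* and *Vmn1r209*, followed by 95.6% between *Vmn1r189* and *Vmn1r221* and 93.4% between *Vmn1r188* and *Vmn1r222*. Because the reads of 75 bases were placed without a mismatch and only where 1 location fitted, single base differences between such relatives decide where a read counts. The first 120 coding bases of these pairs are shown for that reason (GENCODE M21 transcripts, 5′ to 3′ on the coding strand), with capitals at the bases where the 2 members of a pair differ.
Vmn1r188 (chr13:22087878-22087997, plus strand): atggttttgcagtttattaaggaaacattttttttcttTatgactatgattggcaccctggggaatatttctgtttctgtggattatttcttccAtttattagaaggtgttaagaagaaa
Vmn1r222 (chr13:23232922-23233041, minus strand): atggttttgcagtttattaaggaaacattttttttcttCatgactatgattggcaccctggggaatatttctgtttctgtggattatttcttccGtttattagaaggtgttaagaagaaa
Vmn1r189 (chr13:22102546-22102665, minus strand): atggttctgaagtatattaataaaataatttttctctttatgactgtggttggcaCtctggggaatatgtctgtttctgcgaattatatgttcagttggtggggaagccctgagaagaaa
Vmn1r221 (chr13:23217373-23217492, plus strand): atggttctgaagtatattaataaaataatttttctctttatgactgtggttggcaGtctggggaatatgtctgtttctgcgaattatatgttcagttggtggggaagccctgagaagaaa
Vmn1r206 (chr13:22620916-22621035, minus strand): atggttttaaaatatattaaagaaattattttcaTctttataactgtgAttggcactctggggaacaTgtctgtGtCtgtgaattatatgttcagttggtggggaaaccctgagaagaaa
Vmn1r209 (chr13:22806399-22806518, minus strand): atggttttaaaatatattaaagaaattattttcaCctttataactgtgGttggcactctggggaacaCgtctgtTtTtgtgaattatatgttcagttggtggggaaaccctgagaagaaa
The pairs differed at 2, 1 and 5 of these 120 positions.

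For each gene the share of its 75-base coding words that no other annotated transcript holds, on either strand, was counted. The median over the 34 genes was 93.9%. Below 80% were 6 of them, and their values are the least certain of the 34. They ran from 22.9% for *Vmn1r208*, which shares words with the pseudogene *Vmn1r-ps111*, to 78.4% for *Vmn1r219*. Between these were *Vmn1r203* (53.4%), *Vmn1r223* (66.0%), *Vmn1r209* (71.4%) and *Vmn1r206* (75.7%). The length implied by counts and RPKM was a median of 0.882 times the RefSeq length in males and 0.868 times in females. The RefSeq length equals the coding length in 32 of the 34 genes. That the counts followed the coding exon rather than the whole annotated gene is inferred from this. The implied length also rests on the length and scaling behind the RPKM, and the counted region is not given.

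The receptors covered a wide range of levels. *Vmn1r186* and *Vmn1r187* had 0 counts in all 16 libraries, which allows up to 3 counts, or 0.0416 to 0.191 CPM depending on the library. This covers counting error only. Of the 36, 32 reached a mean of 1 RPKM, 18 reached 10 RPKM and 3 reached 40 RPKM. The 3 were *Vmn1r217* with 59.0 ± 21.4 RPKM (SD of 8 line means, both sexes), *Vmn1r196* with 51.8 ± 10.16 and *Vmn1r218* with 45.2 ± 21.2. They were followed by *Vmn1r197* with 39.2 ± 7.80, *Vmn1r210* with 38.3 ± 8.25 and *Vmn1r200* with 27.8 ± 4.77 RPKM. Each of these differed from the next by less than the SD between lines in at least 1 of the pair, except *Vmn1r210* and *Vmn1r200*. The lowest of the detected receptors was *Vmn1r195*, from 0.0770 to 0.559 RPKM and 1 to 33 counts per library.

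**Figure D1:**
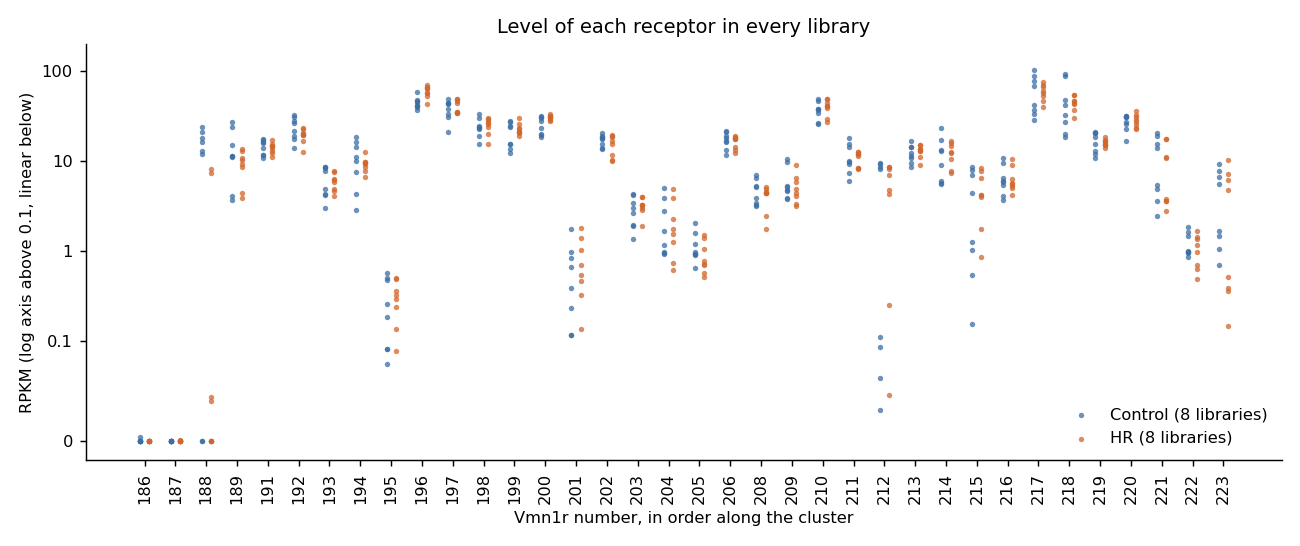
RPKM (vertical axis, logarithmic above 0.1 and linear below) of each of the 36 receptors (horizontal axis, by number) in the 8 Control and the 8 HR libraries, 1 point per library. *Vmn1r186* and *Vmn1r187* lie at or near 0, *Vmn1r195* lies below 1 in every library, and *Vmn1r188* and *Vmn1r212* each split into libraries near 0 and libraries above 4 RPKM.

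The median of the mean level was 13.3 RPKM over the 20 V1rh genes, 6.43 RPKM over the 9 V1ri genes and 5.56 RPKM over the 5 others. The means ran from 1.02 to 59.0 RPKM in V1rh, from 0.290 to 45.2 RPKM in V1ri and from 2.13 to 9.91 RPKM in the others.

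The first comparison asked which receptors differed between HR and Control, with sex as a covariate (edgeR quasi-likelihood test, Benjamini-Hochberg adjustment over 16507 genes). Of the 36 receptors, 34 passed the filter on low counts, all but *Vmn1r186* and *Vmn1r187*. None passed an adjusted p of 0.05, where 4 of all genes (0.0242%) did. At an unadjusted p under 0.05 there were 2 of 34, *Vmn1r196* and *Vmn1r200*, against 3.3% of all genes, and both were higher in HR, against 1.6% of all genes. That fit takes the male and female pools of a line as independent. Over the 34 receptors these pools deviated together from their group means (r 0.891 to 0.974). Its SEs and p-values therefore tend to be too small. With the line as a random effect (limma-voom) 1 of 34, *Vmn1r196*, had an unadjusted p under 0.05, against 1.59% of all genes, and on the summed counts of each line it was again *Vmn1r196* alone, against 1.21%. DESeq2 called 1 of 34 receptors at an adjusted p under 0.05, against 0.182% of all genes.

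That receptor was *Vmn1r196* (V1rh19 by its older name), the second most abundant of the set. In Control lines 1, 2, 4 and 5 it stood at 39.4, 33.7, 31.6 and 36.6 CPM in males and at 36.5, 37.2, 33.1 and 45.8 CPM in females. In HR lines 3, 6, 7 and 8 it stood at 38.2, 61.6, 49.4 and 57.4 CPM in males and at 44.1, 53.2, 47.6 and 54.7 CPM in females. HR lines 6, 7 and 8 were above every Control library in both sexes, while HR line 3 lay within the Control range, so the line means met at 41.1 CPM for HR line 3 and 41.2 CPM for Control line 5.

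Over lines, *Vmn1r196* averaged 50.8 ± 7.53 CPM in HR (SD, n = 4 lines) and 36.7 ± 3.74 CPM in Control (n = 4). The log2 fold change was 0.47 ± 0.10 (SE), with an unadjusted p = 0.000193 and an adjusted p = 0.199 by edgeR's quasi-likelihood test. The DESeq2 adjusted p was 0.00602. Leaving out HR line 3 gave a log2 fold change of 0.56 and an edgeR adjusted p = 0.0270, and the other 7 fits without a line gave 0.41 to 0.53 with adjusted p from 0.135 to 0.586. Permuting the 8 line means of log2 CPM between the groups (exact, two-sided) gave p = 0.0286, the smallest that 4 lines against 4 allow. *Vmn1r196* was the 1 of 34 receptors to reach it, against 0.8% of all genes. Chance alone gives this value at a rate of 0.0286 per receptor. Reaching it rests on the scale, because HR line 3 and Control line 5 lay at 5.360 and 5.356 on the log2 scale but in the opposite order in CPM. The same exact permutation test gave p = 0.0571 on CPM line means and p = 0.0571 on log2(RPKM + 1) line means. With the line as a random effect the adjusted p was 0.461.

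*Vmn1r196* shares a run of 180 identical coding bases with *Vmn1r189* although the 2 coding sequences as a whole are 73.5% identical. Reads inside the run fit more than 1 place and are not counted, so the values above rest on the other words of the gene, 84.9% of them. The run covers coding bases 553 to 732 of *Vmn1r196* and is shown because no read within it can tell the pair apart.
Vmn1r196 (chr13:22293745-22293924, plus strand): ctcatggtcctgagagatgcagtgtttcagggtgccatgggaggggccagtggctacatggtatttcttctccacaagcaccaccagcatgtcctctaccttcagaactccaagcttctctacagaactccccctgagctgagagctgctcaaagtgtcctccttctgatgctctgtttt
The line profiles of the pair differ. *Vmn1r189* ranged from 3.03 CPM in HR line 3 to 19.1 CPM in Control line 1, with a log2 fold change of -0.60 ± 0.39 (SE) and an edgeR adjusted p = 0.9997, while *Vmn1r196* was lowest in Control line 4 and highest in HR line 6.

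*Vmn1r200* (V1rh3) stood at 24.5, 25.3, 14.6 and 15.99 CPM in the males and 21.3, 22.9, 17.5 and 15.1 CPM in the females of Control lines 1, 2, 4 and 5. In HR lines 3, 6, 7 and 8 it stood at 23.2, 21.9, 25.5 and 25.4 CPM in males and 25.2, 22.8, 23.9 and 24.1 CPM in females. Control lines 4 and 5 were below every HR library in both sexes, and the means of Control lines 1 and 2 lay within the range of the HR lines. The log2 fold change was 0.29 ± 0.12 (SE) with an edgeR adjusted p = 0.9997, and the exact permutation p over the line means was 0.114. The unadjusted p was above 0.05 without Control line 4 (0.0972) or 5 (0.107) and without HR line 3 (0.0511), 7 (0.0650) or 8 (0.0626).

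**Figure D2:**
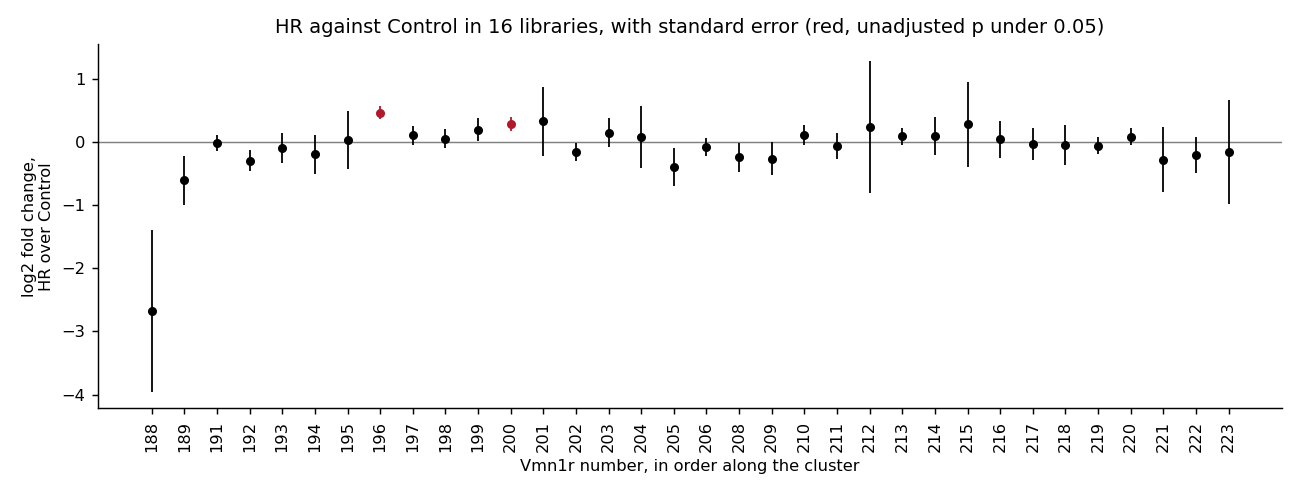
Log2 fold change of HR over Control with its standard error (vertical axis) for the 34 tested receptors in order along chromosome 13 (horizontal axis), from 16 libraries. *Vmn1r196* and *Vmn1r200* (red) are above 0 at an unadjusted p under 0.05, and *Vmn1r188*, *Vmn1r212* and *Vmn1r223* have the widest errors.

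Across the 34 receptors 16 had a higher fitted level in HR and 18 a lower one, with a median log2 fold change of -0.02. The median size of the change, sign ignored, was 0.15 on the log2 scale, against 0.07 over all genes tested and 0.15 over the 121 tested other Vmn1r genes. The split of directions turned on single lines. It was 25 higher of 34 without Control line 1 and 5 higher of 34 without Control line 4. In CPM the HR and Control line ranges overlapped for all 34 receptors, where 0.788% of all genes had ranges that did not overlap. In log2 CPM they did not overlap for 1 of 34, *Vmn1r196*, against 0.8% of all genes. This is the same event as its exact permutation p of 0.0286, not a separate result. The summed level of the receptors was 432 ± 59.3 CPM in HR and 426 ± 120 CPM in Control (SD, n = 4 lines each, exact two-sided permutation p = 0.857).

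In males alone 1 of 33 tested receptors had an unadjusted p under 0.05 (*Vmn1r196*, log2 fold change 0.54 ± 0.15), against 1.12% of all genes. In females alone 2 of 34 did (*Vmn1r196*, 0.40 ± 0.12, and *Vmn1r200*, 0.32 ± 0.14), against 1.94% of all genes. None passed the adjusted threshold in either sex. No receptor had an interaction of sex and linetype at an unadjusted p under 0.05, against 0.394% of all genes.

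Males and females did not differ in any of the 34 at an unadjusted p under 0.05, where 8.08% of all genes did. With the line as a block 6 of 34 receptors had an unadjusted p under 0.05, a share near the 16.7% of all genes in the same fit, and none had an adjusted p under 0.05. The smallest p among the 6 belonged to *Vmn1r209*, which was lower in the female than in the male library of all 8 lines, at -0.28 ± 0.08 on the log2 scale (edgeR with line as block, adjusted p = 0.142). *Vmn1r209* has 71.4% unique words. *Vmn1r204* was higher in the female library of all 8 lines, at 0.42 ± 0.15 (adjusted p = 0.217). *Vmn1r198* was lower in 6 of 8 female libraries (-0.23 ± 0.09, adjusted p = 0.227) and *Vmn1r202* was higher in 6 of 8 (0.24 ± 0.09, adjusted p = 0.242). The study describes 8 libraries in a single lane without naming them, and male and female values came separately. Sex and sequencing run therefore cannot be told apart here.

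The next comparison asked whether the lines of a group differed. A test of differences among the 4 Control lines and among the 4 HR lines, against the spread between the male and the female library of the same line, called 29 of 34 receptors (edgeR, adjusted p under 0.05), where 28.6% of all genes and 75 of 121 other Vmn1r genes were called. The 5 receptors not called were *Vmn1r202*, *Vmn1r203*, *Vmn1r208*, *Vmn1r220* and *Vmn1r222*. Of the receptors with at least 80% unique words 25 of 28 were called, and 4 of 6 of those with fewer. The line that was lowest in males was also lowest in females for 22 of 34 receptors, against 28.2% of all genes, and the highest line was the same in both sexes for 17 of 34, against 28.4%.

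*Vmn1r188* (V1rh17), the first gene of the cluster, was at or near 0 in 4 lines. It had 1369 and 1182 counts in the male and the female library of Control line 1, 741 and 281 in Control line 2 and 381 and 409 in Control line 4. It had 0 counts in both libraries of Control line 5. In HR it had 285 and 284 counts in line 7, 0 and 0 in line 3, 0 and 2 in line 6, and 1 and 2 in line 8. The 5 libraries at 0 allow at most 0.0709 to 0.191 CPM, against 5.98 to 19.4 CPM in the 8 libraries of the other 4 lines. Both sexes of every line fell on the same side. Its HR and Control lines therefore overlapped, at 1.63 ± 3.22 CPM in HR and 10.6 ± 7.71 CPM in Control (SD, n = 4 lines).

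The study reported *Vmn1r188* as significantly lower in HR by Cuffdiff, a test that was not run here. The exact permutation p over its line means was 0.171. The HR against Control fit of *Vmn1r188* gave a log2 fold change of -2.67 ± 1.28 (SE, unadjusted p = 0.0544, edgeR adjusted p = 0.9997). HR line 7 decided this value, which became -8.64 with an adjusted p = 0.102 without it. Its relative *Vmn1r222*, shown beside it above, stayed between 0.52 and 1.38 CPM in all lines.

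**Figure D3:**
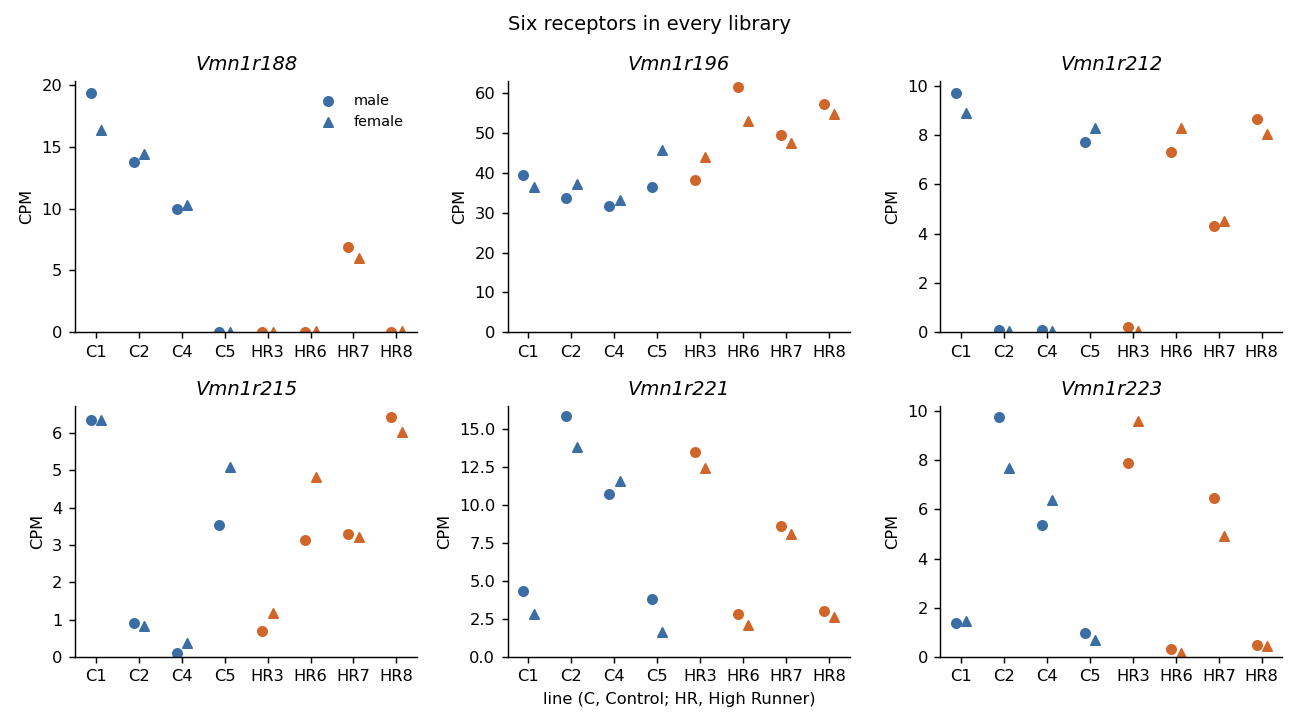
CPM (vertical axes, from 0) of 6 receptors in the male (circle) and female (triangle) library of each line (C, Control, blue; HR, High Runner, orange). The male and female libraries of a line lie together, *Vmn1r188* is near 0 in C5, HR3, HR6 and HR8, *Vmn1r212* and *Vmn1r215* are low in C2, C4 and HR3, and *Vmn1r221* and *Vmn1r223* are high in those 3 lines.

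At the other end of the cluster the order of lines was shared by neighbours. *Vmn1r212* (V1rh18) had 5 and 1 counts in the male and the female library of Control line 2, 3 and 2 in Control line 4, and 9 and 1 in HR line 3, against 130 to 686 counts in each of the other 10 libraries. The line means were 0.07, 0.06 and 0.12 CPM in these 3 lines, 4.42 CPM in HR line 7, and 7.80 to 9.30 CPM in Control lines 1 and 5 and HR lines 6 and 8. *Vmn1r215* (V1ri2) had the same 3 lowest lines, at 0.86 CPM in Control line 2, 0.24 in Control line 4 and 0.93 in HR line 3, against 3.25 to 6.34 CPM in the other 5.

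In CPM, Control lines 2 and 4 and HR line 3 were the 3 lowest lines for all 8 receptors from *Vmn1r212* to *Vmn1r219*. These follow each other without a gap in the set. As a share of the summed CPM of the receptors, the order did not hold for *Vmn1r213* and *Vmn1r219*. *Vmn1r213* held 2.67% in Control line 1 against 3.19% in Control line 4. *Vmn1r219* held 2.76% in HR line 8 against 3.31% in Control line 4. For the others of the 8 it held. The size of the difference in CPM varied among the 8. The highest line exceeded the lowest 144-fold for *Vmn1r212* and 26.2-fold for *Vmn1r215*, but 4.78-fold for *Vmn1r218*, 3.14-fold for *Vmn1r216*, 3.11-fold for *Vmn1r217*, 1.77-fold for *Vmn1r219* and 1.65-fold for *Vmn1r213*. Of all genes tested 156 (0.945%) had these 3 lines lowest, and of the 121 other Vmn1r genes none did. In male libraries alone it held for all 8, in female libraries alone for 7 (not *Vmn1r216*), and in RPKM for 7. Over all tested receptors these 3 lines were lowest for 9 in males, 8 in females and 9 in RPKM. Those outside the run were *Vmn1r204* in males, *Vmn1r210* in females, and *Vmn1r209* and *Vmn1r210* in RPKM. On these values the order was therefore not confined to the run.

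The most abundant of these 8 were *Vmn1r217* and *Vmn1r218*. *Vmn1r217* (V1rh14) stood at 30.1, 23.3 and 32.6 CPM in Control line 2, Control line 4 and HR line 3, against 42.6 to 72.5 CPM in the other 5 lines. *Vmn1r218* (V1ri5) stood at 22.4, 14.4 and 24.8 CPM against 33.6 to 68.9 CPM. In both, Control line 1 was highest.

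The 4 receptors past *Vmn1r219* differed in their order of lines. *Vmn1r220* ran from 14.0 CPM in Control line 4 to 24.5 CPM in HR line 8, and *Vmn1r222* from 0.52 CPM in HR line 6 to 1.38 CPM in Control line 2, and neither was called in the test of lines. *Vmn1r221* was highest in Control line 2 at 14.8 CPM, HR line 3 at 12.97 CPM and Control line 4 at 11.1 CPM, intermediate in HR line 7 at 8.35 CPM, and 2.47 to 3.58 CPM in Control lines 1 and 5 and HR lines 6 and 8. *Vmn1r223*, the last gene of the cluster, had the same 3 lines highest, with 8.71, 8.74 and 5.88 CPM in Control line 2, HR line 3 and Control line 4, 5.69 CPM in HR line 7, and 0.23 to 1.41 CPM in the other 4. HR line 7 thus lay between the low and the high lines for *Vmn1r212* and *Vmn1r221*, but close to Control line 4 for *Vmn1r223*. *Vmn1r223* has 66.0% unique words. Of all genes tested 187 (1.13%) had Control lines 2 and 4 and HR line 3 highest, *Vmn1r221* and *Vmn1r223* among them. In female libraries alone and in RPKM it held for both receptors. In male libraries alone it held for *Vmn1r221* only, because HR line 7 was above Control line 4 for *Vmn1r223*.

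These 3 lines were singled out after the values were seen, so the counts are a description and carry no test. Other tested genes within 1 Mb of the cluster or inside it were looked up by their symbol in RefSeq, which placed 20. Of these 20, 1 had the 3 lines lowest (*Hfe*) and 1 had them highest (*C230035I16Rik*). Tested genes without a matching symbol were left out, and *Vmn1r207-ps* was not among the 20. The part of the alignment without mismatches in the line differences was not tested.

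**Figure D4:**
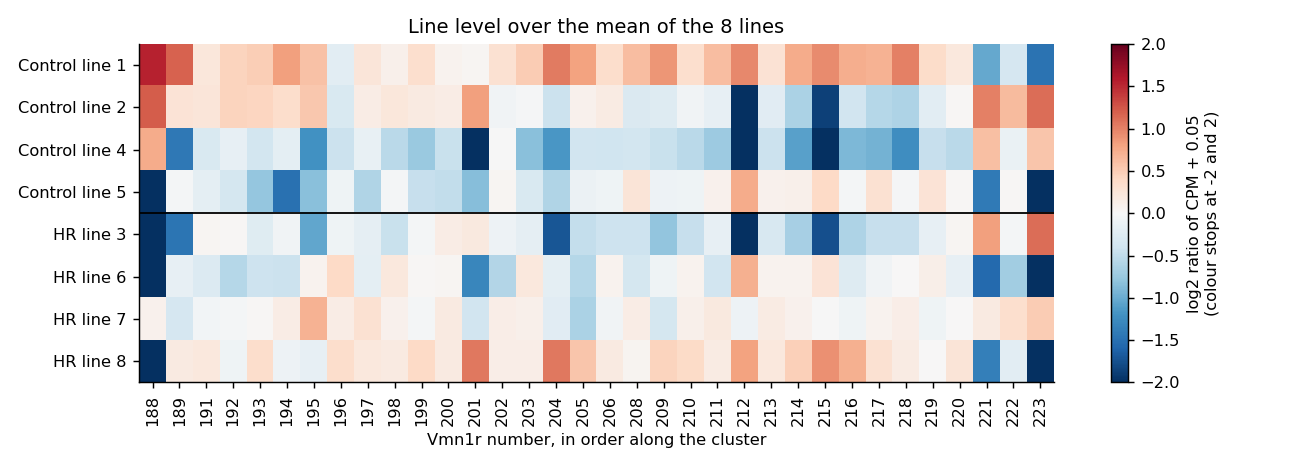
Log2 ratio of each line's CPM to the mean of the 8 lines (colour, 0.05 CPM added, cut at -2 and 2) for the 34 receptors in order along chromosome 13 (horizontal axis) and the 8 lines (vertical axis, Control above the black line and HR below). From *Vmn1r212* to *Vmn1r219* Control lines 2 and 4 and HR line 3 are the lowest, at *Vmn1r221* and *Vmn1r223* they are the highest, and *Vmn1r188* is near 0 in 4 lines.

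From *Vmn1r188* to *Vmn1r211* the lowest line varied from gene to gene. Control line 5 was the lowest line for *Vmn1r194*, at 2.68 CPM against 13.5 CPM in Control line 1, for *Vmn1r193*, *Vmn1r197* and *Vmn1r200*, and, together with HR line 3, for *Vmn1r188*. *Vmn1r204* was lowest in HR line 3 at 0.52 CPM and highest in HR line 8 at 3.86 CPM. *Vmn1r201*, with 3 to 52 counts per library, was lowest in Control line 4 at 0.09 CPM and highest in HR line 8 at 1.14 CPM. Over all 34 receptors Control line 1 was the highest line for 19 and Control line 4 the lowest for 18. The summed level was 588.9 CPM in Control line 1 and 300.4 CPM in Control line 4, and the receptors held 20.8% and 13.7% of all Vmn1r CPM in these lines.

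Markers of the tissue were read beside these levels. *Omp*, a gene of mature sensory neurons, stood at 2050 ± 403 CPM in HR and 1994 ± 300.5 CPM in Control (SD, n = 4 lines each, log2 fold change 0.05 ± 0.13, edgeR adjusted p = 0.9997), and *Gnai2* at 1095 ± 183 and 1131 ± 214 CPM (-0.04 ± 0.13, adjusted p = 0.9997). *Trpc2* had 0 counts in all 16 libraries but 259 to 417 RPKM, so it was not tested. The 6 apical layer markers (*Gnai2*, *Meis2*, *Nrp2*, *Ncam2*, *Pde4a* and *Gng13*) summed to 2017 CPM in Control line 1 and 1559 CPM in Control line 4, with a range of 1428 to 2017 CPM in Control and 1443 to 1932 CPM in HR.

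Of the lists for the pathway, 0 of 15 tested genes of V1R signalling and receptor transport (among them *Gnb1*, *Gng13*, *Rtp1* and *Reep1*) and 0 of 20 genes of receptor choice and neuron maturation (among them *Lhx2*, *Ldb1* and *Ebf1*) had an unadjusted p under 0.05 between HR and Control. Of the marker lists, 1 gene did, the progenitor factor *Neurod1*, at 5.55 ± 0.676 CPM in HR and 6.99 ± 0.606 CPM in Control (unadjusted p = 0.0400, edgeR adjusted p = 0.9997). The lists for mature, immature, apical layer and basal layer neurons, main olfactory neurons, supporting and ciliated cells, blood, endothelium, immune cells, and cartilage and bone had none. Only 1 of 5 blood genes and 1 of 2 mature neuron genes could be tested. The median log2 fold changes of these lists ran from -0.54 (ciliated cells) and -0.36 (endothelium) to 0.10 (blood). With so few genes per list, having none does not show that the tissue was alike. The 5 main olfactory genes summed to 808 to 1067 CPM over Control lines and 787 to 1037 CPM over HR lines, while the defining *Cnga2* and *Gnal* had medians of 0.0413 and 0.501 RPKM. The part of cell composition in the receptor levels was not tested.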

How the data were processed

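VNO RNA from 16 pools of 3 mice was sequenced as directional libraries. The authors aligned reads of 75 bases to GRCm38 with STAR 2.6.1d, accepting no mismatch and dropping reads with more than 1 location. The deposited counts are raw reads per gene, and the counting tool, the annotation and the use of strand are not given in the sources used here. The deposited RPKM values were made by the authors with Cufflinks, one table per sex. In males 21.4% to 23.8% of the reads mapped to 1 location were not assigned to a gene.

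Genes were filtered with filterByExpr (minimum count 10), scaled by TMM and tested with edgeR 4.0.16 (R 4.3.3, limma 3.58.1) at an adjusted p of 0.05, with sex as covariate. Lines were tested with line and sex as terms. Alternatives were DESeq2 1.42.0, other scaling, no filter, line sums, limma on log2(RPKM + 1 or 0.1), a line block and leaving out each line. Exact permutation tests used means of log2 CPM (prior count 2) over lines. Male and female libraries of the same line deviated together from their group means (r 0.321 to 0.708 over genes, 0.891 to 0.974 over the receptors). They come from the same line, so line numbers paired the libraries. The random effect of line used a single correlation for all genes, 0.491. It is not the same measure as these r, and it was not estimated for the receptors alone. Over all genes the male libraries of Control lines 1 and 4 correlated best with the female library of another line. Nothing says that the pools of a line were repeated. The p-values of the main fit measure the spread among libraries of the same sex and linetype. Those of the test of lines measure the spread between the male and the female pool of a line. Those of line sums and permutations measure the spread among lines. Scripts were tested on simulated data.

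Coordinates and coding sequences came from GENCODE M21 and older names from RefSeq (GRCm38.p6), read with Biopython 1.88. A protein table was not used here. All 36 receptors were accounted for. Values were printed for those with an unadjusted p under 0.05 between HR and Control or an adjusted p under 0.05 in any fit, the 6 highest and 3 lowest RPKM, the 6 largest SDs between lines, the 3 smallest p between sexes, those near 0 in a line, and *Vmn1r188*. Receptors named beyond that, and the order of lines, were chosen after their values were seen. The receptors and lists were chosen with earlier results of these data known.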

Additional observations from a re-analysis of the deposited data

Results flagged for a closer look

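*Vmn1r188* in HR line 7, at 6.46 CPM, stood apart from HR lines 3, 6 and 8, which lay between 0 and 0.0399 CPM. The gap was 0.994 of the range of the 4 lines, above Dixon's critical value. It was the 1 value so marked in 34 groups of 4 lines. These groups were 16 named receptors and the summed level, each in HR and in Control. Some receptors, *Vmn1r188* among them, were named for their spread between lines or for lines near 0. The rate of about 1 in 20 groups that chance marks therefore does not apply here. The male and female pools of this line had 285 and 284 counts.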

How the results depend on the processing

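Levels near 0 rest on few counts, receptors with few unique words rest on part of their coding sequence, and each line has 2 pools. The count of receptors called between HR and Control was 0 by edgeR, 1 by DESeq2, and 0 to 1 when each line was left out (1 without HR line 3). Over all genes the 4 calls became 30 by DESeq2, 0 with the line as a random replicate block, 0 on line sums and 1 (without Control line 1 or HR line 7) to 17 (without Control line 2) when a line was left out. The male calls went from 0 to 10 and the female calls from 0 to 5 by DESeq2, and to 0 to 1 and 0 to 2 without a line. Between the sexes 31 genes were called, 180 by DESeq2, 90 with the line as a replicate block and 13 to 25 without a line, and no receptor in any of these. The line as a block changed no other call. Among lines 4714 genes were called, 7190 by DESeq2 and 3076 to 4951 without a line, and the receptors called were 31 by DESeq2 and 25 to 29 without a line. Receptors with an exact permutation p under 0.05 over line means went from 1 to 0 with log2(RPKM + 1), to 0 with CPM and to 0 to 1 without a line (0 in each fit without a Control line), all chosen after seeing the data. Of 240 values of 16 named receptors under alternatives, 34 had the opposite sign and 2 passed the threshold, both of *Vmn1r196*.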

Other observations

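The pseudogene *Vmn1r207-ps*, which stands among the receptors, had 150 to 1011 counts per library and a median of 10.4 RPKM.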
